A study of Mus musculus with 6 samples.

Results

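The 41 genes described here encode transcription factors that direct the formation of blood, skeletal muscle, heart, bone and connective tissue, gut, pancreas and liver, and they form a named list: 6 GATA genes, the T-box genes Tbx1 to Tbx6, Tbx10, Tbx15, Tbx18 and Tbx20 to Tbx22, Meox1 and Meox2, the 3 Runx genes, Spi1 and Tal1, the muscle factors Myod1, Myf5, Myf6 and Myog, the heart and mesoderm factors Nkx2-5, Hand1, Hand2, Twist1, Mesp1, Tcf15 and Tcf21, and the gut, liver and pancreas factors Cdx1, Cdx2, Cdx4, Hnf4a and Pdx1. All 41 were found by symbol among 21883 protein-coding genes of the RefSeq annotation of GRCm38. The list was set by gene name, and it was chosen with earlier results of these data known. The cells were neural stem and progenitor cells (NSPCs) from mouse forebrain at E13.5, grown at passage 2 to 3 with EGF and FGF, and given water as the control or 10 mM crotonate, a short unsaturated fatty acid, for 24 h. The labels state no genotype or strain. Histone H3 trimethylated at lysine 4 (H3K4me3) and at lysine 27 (H3K27me3) were mapped by CUT&Tag, in which a transposase tethered by antibodies cuts and tags DNA next to the mark. There was 1 library per mark and treatment, so no difference between treatments has a replicate check and no test was made. The 2 IgG libraries were not analysed here.

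Trimethylation of H3K27 is laid down by Polycomb repressive complex 2 over genes that are kept silent, often developmental regulators of other lineages, and it can spread as a domain over a whole gene. Trimethylation of H3K4 marks the starts of active genes and of many genes with promoters rich in CG dinucleotides. Genes with both marks at a promoter are called bivalent, a state first described in embryonic stem cells. In neural cells, regulators of blood, muscle, heart and gut are textbook examples of Polycomb targets.

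The data for these genes are the authors' peak lists. A gene was called positive for a mark when a peak reached within 2 kb of either end of the gene, because the annotation used here gives both ends and no strand. A peak further in was counted as inside the gene. The lists held 13221 H3K4me3 peaks in water and 16007 after crotonate, and 7643 and 15879 H3K27me3 peaks. The lowest background per bp in a list was 1.80 times deeper after crotonate for both marks. The library depth read from the pileup steps was 1.16 times that of water for H3K4me3 and 0.811 times for H3K27me3. A weak peak therefore had unequal chances of being called in the 2 treatments. All 10 markers fixed for neural stem and progenitor cells, among them Sox2, Nes and Pax6, had H3K4me3 at an end or inside the gene in water, and none had H3K27me3 at an end. Of 4 neuronal markers, 3 had H3K4me3 at an end in water, Tubb3, Map2 and Rbfox3. Rbfox3 had H3K27me3 at the same end, and Dcx had H3K27me3 inside the gene only. No peak of either mark lay at the 5 microglia and blood markers. Of 4 endothelial markers Kdr alone had H3K4me3, and of 5 mesenchymal markers Pdgfrb alone had a mark in water, H3K27me3.

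Promoter sequences of the members differed widely in CG content, and 6 are shown as examples of CG-rich starts on H3K27me3 and CG-poor starts without a mark. Each runs from 250 bases before the annotated start to 50 bases from it, 5′ to 3′ on the gene's own strand, from RefSeq for GRCm38.p6, with every CG dinucleotide in capitals. The internal and the distal start of Runx1, the factor that specifies definitive blood, lay at chr16:92697280-92697579 and chr16:92826025-92826324 on the minus strand. Twist1, a mesenchyme factor, lay at chr12:33957421-33957720 on the plus strand, and Tbx21, the T-bet factor of type 1 T helper cells, at chr11:97115282-97115581 on the minus strand. The internal start of Gata2, a factor of blood stem cells, lay at chr6:88198414-88198713 on the plus strand, and that of the muscle factor Myf5 at chr10:107486085-107486384 on the minus strand.
Runx1 internal start: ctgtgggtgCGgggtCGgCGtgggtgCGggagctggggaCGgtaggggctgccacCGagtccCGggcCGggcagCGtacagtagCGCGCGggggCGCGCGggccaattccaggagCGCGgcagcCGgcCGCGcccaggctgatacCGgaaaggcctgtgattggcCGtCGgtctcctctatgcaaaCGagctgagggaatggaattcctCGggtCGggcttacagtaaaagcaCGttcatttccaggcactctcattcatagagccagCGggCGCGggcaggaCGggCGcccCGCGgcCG
Runx1 distal start: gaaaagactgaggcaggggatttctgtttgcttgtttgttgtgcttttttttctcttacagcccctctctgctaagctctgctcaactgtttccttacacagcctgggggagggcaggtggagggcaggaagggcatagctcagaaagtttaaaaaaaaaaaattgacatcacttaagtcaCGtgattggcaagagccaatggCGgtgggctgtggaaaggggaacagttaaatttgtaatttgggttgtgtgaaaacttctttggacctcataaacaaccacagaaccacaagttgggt
Twist1: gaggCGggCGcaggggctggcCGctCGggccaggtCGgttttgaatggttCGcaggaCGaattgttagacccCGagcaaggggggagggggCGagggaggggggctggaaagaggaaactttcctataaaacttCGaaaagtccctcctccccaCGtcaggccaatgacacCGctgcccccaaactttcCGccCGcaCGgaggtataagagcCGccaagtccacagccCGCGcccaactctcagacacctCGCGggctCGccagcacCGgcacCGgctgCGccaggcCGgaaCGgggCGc
Tbx21: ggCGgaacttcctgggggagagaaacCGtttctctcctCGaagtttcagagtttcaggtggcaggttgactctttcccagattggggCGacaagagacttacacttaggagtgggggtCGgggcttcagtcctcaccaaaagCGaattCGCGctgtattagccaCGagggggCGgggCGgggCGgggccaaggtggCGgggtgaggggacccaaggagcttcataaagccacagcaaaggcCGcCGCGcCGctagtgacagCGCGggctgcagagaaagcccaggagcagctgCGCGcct
Gata2 internal start: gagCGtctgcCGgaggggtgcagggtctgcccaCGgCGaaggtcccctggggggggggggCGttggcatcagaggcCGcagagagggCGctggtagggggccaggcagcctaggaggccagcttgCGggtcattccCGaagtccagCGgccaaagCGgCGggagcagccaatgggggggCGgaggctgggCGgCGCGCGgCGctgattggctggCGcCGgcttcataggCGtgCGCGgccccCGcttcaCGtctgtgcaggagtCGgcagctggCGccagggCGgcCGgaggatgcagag
Myf5: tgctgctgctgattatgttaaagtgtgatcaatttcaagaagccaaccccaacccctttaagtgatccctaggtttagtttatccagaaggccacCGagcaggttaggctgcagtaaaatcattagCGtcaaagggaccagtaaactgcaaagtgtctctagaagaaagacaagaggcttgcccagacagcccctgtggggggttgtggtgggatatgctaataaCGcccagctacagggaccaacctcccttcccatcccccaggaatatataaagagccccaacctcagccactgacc
The windows held 35 CG at the internal Runx1 start and 2 at the distal one, 27 at Twist1, 21 at Tbx21, 29 at the internal Gata2 start and 3 at Myf5. In water the internal Runx1, Twist1, Tbx21 and Gata2 windows lay on H3K27me3, and the distal Runx1 and Myf5 windows lay on neither mark.

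In water most of the 41 genes carried H3K27me3 and few carried H3K4me3. H3K27me3 was called at an end of 28 members (68.3%, exact Clopper-Pearson 95% interval 51.9 to 81.9%), against 9.45% of all 21883 protein-coding genes. H3K4me3 was called at an end of 6 members (14.6%, 5.57 to 29.2%), against 54.1% of all genes. Intervals cover counting error only. Both marks stood at the same end of 4 members (9.76%), against 3.85% of all genes. With peaks inside the gene counted as well, 32 members had H3K27me3 (11% of all genes) and 9 had H3K4me3 (57.4% of all genes). In bulk chromatin, a mark in fewer cells and a weaker mark in every cell cannot be told apart, and 2 marks at 1 place need not be in the same cells.

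After crotonate more members carried each mark. H3K27me3 was called at an end of 31 members (75.6%, 59.7 to 87.6%) against 12.3% of all genes, and H3K4me3 at an end of 11 (26.8%, 14.2 to 42.9%) against 58.2%. Both marks stood at the same end of 8 (19.5%) against 6.81%. No member lost a mark at an end. That is 0 of 28 for H3K27me3, with an upper interval bound of 12.3%, against 4.06% of all genes, and 0 of 6 for H3K4me3 against 0.093%. With peaks inside the gene counted, it is 0 of 32 for H3K27me3 against 3.57% and 0 of 9 for H3K4me3 against 0.0558%. H3K4me3 was new at 5 of the 35 members without it in water (14.3%, 4.81 to 30.3%), against 9.09% of all such genes. H3K27me3 was new at 3 of 13 (23.1%, 5.04 to 53.8%) against 3.52%, and with peaks inside the gene counted at 3 of 9 (33.3%, 7.49 to 70.1%) against 4.77%. Of the 24 members with H3K27me3 only in water, 4 had H3K4me3 after crotonate (16.7%, 4.74 to 37.4%), while 37.6% of all genes that began in that state did. These counts rest on gene ends. Among the 24, Gata3 had H3K4me3 inside the gene in water, and Gata2 and Tal1 gained it there. Of the 11 members with neither mark at an end in water, 1 had H3K4me3 after crotonate (9.09%, 0.230 to 41.3%), against 5.56% of all such genes.

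**Figure D1:**
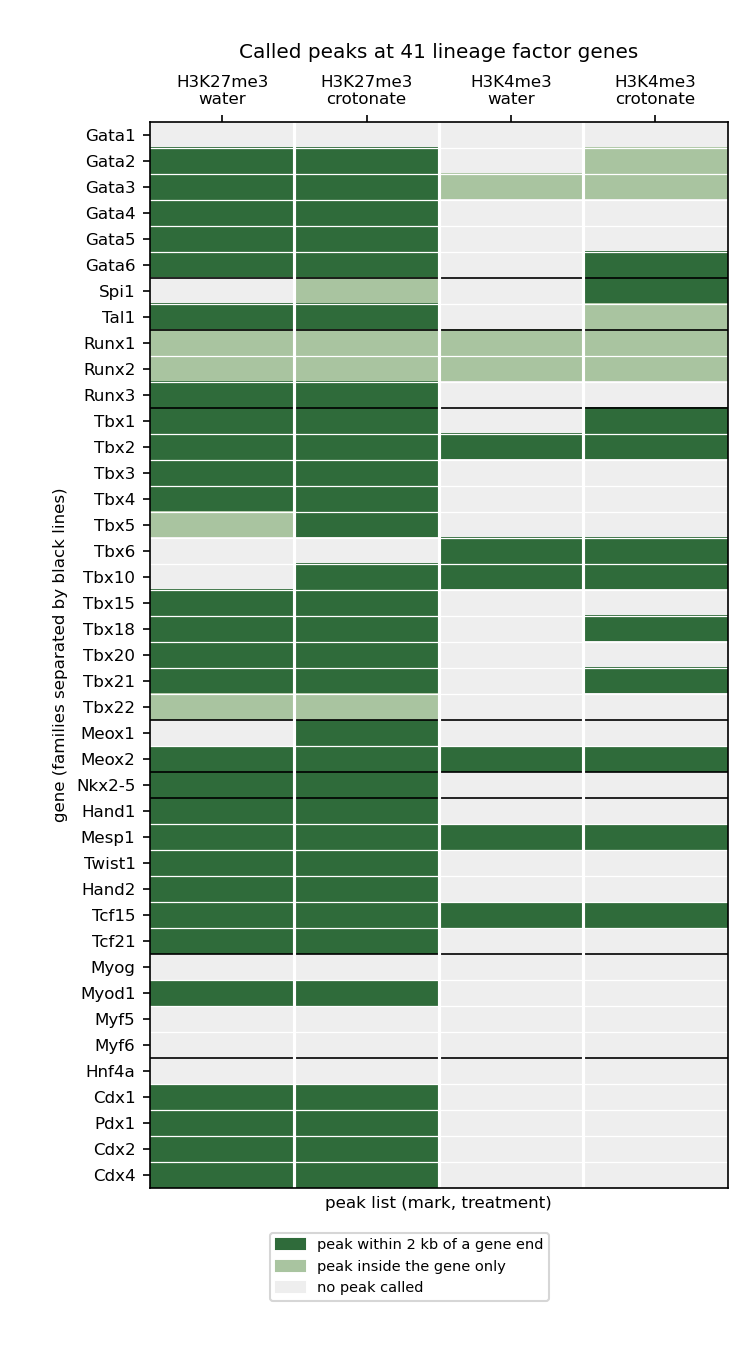
Marks called at each of the 41 genes (1 row a gene, ordered by family) in water and after crotonate, dark where a peak lies within 2 kb of a gene end and light green where it lies only inside the gene. H3K27me3 stands at an end of 28 genes in water and 31 after crotonate, H3K4me3 at 6 and 11.

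Most of the GATA genes carried H3K27me3. Gata2, Gata3 (needed for type 2 T helper cells), and the heart and endoderm factors Gata4, Gata5 and Gata6 had it at an end in water. Gata1, the master factor of red cells, had no peak of either mark in any list. The longest domain among the GATA genes was at Gata4 (chromosome 14, 63198914 to 63271712), whose leading peak measured 48.3 kb among 3 peaks in water, and 48.6 kb among 5 with crotonate. H3K27me3 covered 62.3% of the Gata4 locus, the gene with 2 kb either side, in water and 72.0% after crotonate. Gata2 was covered whole in both lists, by a peak of 22.9 kb and of 24.9 kb, and the Gata3 peak measured 31.2 kb and 38.4 kb. At Gata5 the longest peak was 10.1 kb long in water, 16.3 kb with crotonate, and the covered share was 54.9% and 88.0%. Gata6 had 36.8% of its locus covered in water and 43.6% after crotonate.

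Tal1, which with Gata1 and Gata2 sets up blood progenitors, lay under an H3K27me3 peak that measured 21.9 kb without crotonate and 23.2 kb with it. Spi1, the PU.1 factor of myeloid cells and microglia, had no peak in water. After crotonate it had an H3K27me3 peak of 696 bp inside the gene and an H3K4me3 peak of 550 bp at its upper end, 32573 bp from its lower end and off the H3K27me3 peak. The Spi1 H3K4me3 summit held 38 fragments (exact Poisson 95% interval 26.9 to 52.2), with a fold enrichment over local background of 4.07, where the median peak of that list had 18.2. Fold enrichments are the authors' own values, used here to place a peak within its list.

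Of the Runx genes, Runx3, a factor of cytotoxic T cells and sensory neurons, had H3K27me3 at an end. Its covered share was 48.6% in water and 72.6% after crotonate, a difference of 14734 bp that no other member exceeded. The longest Runx3 peak was 22.5 kb long with 597 fragments at its summit (550 to 647) and a fold enrichment of 38.9 in water, and 27.9 kb with 322 (288 to 359) and 51.4 after crotonate. Runx1 and Runx2, the factor of bone-forming cells, are long genes of 225 kb and 319 kb with no mark at an end. Both had an H3K27me3 domain inside the gene with H3K4me3 on it. The Runx1 domain was 10.4 kb long in water, 12.6 kb with crotonate, and included the internal start printed above, while the distal start with its 2 CG had neither mark. The Runx1 H3K4me3 peak at that start measured 661 bp with 37 fragments at its summit (26.1 to 51.0) and a fold enrichment of 5.31 in water, and 2120 bp with 62 (47.5 to 79.5) and 13.0 after crotonate, when another of 935 bp was called beside it. In Runx2 an H3K4me3 peak of 1924 bp in water and 2738 bp after crotonate lay wholly on H3K27me3, 77905 bp in water from the nearest start in the promoter table. It had 86 fragments at its summit (68.8 to 106) and a fold enrichment of 5.84 in water, and 101 (82.3 to 123) and 20.4 after crotonate. The other H3K4me3 peak in Runx2, with 159 and 148 fragments and fold enrichments of 8.23 and 35.7, lay at an end of the neighbouring gene Supt3, off H3K27me3.

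Tbx15 carried the longest domain among the T-box genes in both treatments. At Tbx15, a factor of skeleton and muscle fibres, the longest peak was 35.4 kb long in water, 37.2 kb with crotonate. At Tbx20, a heart factor, it measured 22.0 kb with 611 fragments at the summit (564 to 661) and a fold enrichment of 25.2, and 22.9 kb with 341 fragments (306 to 379) and a fold enrichment of 115. H3K27me3 covered 41.3% of the Tbx20 locus in water and 52.0% after crotonate, a difference of 6177 bp. Tbx1 of the pharyngeal arches was 96.6% covered in water and 97.4% after crotonate, and Tbx2 of heart and limb 90.7% and 96.6%. Tbx3, which acts in limb and mammary gland, was 74.7% and 85.3% covered, and Tbx4, the hindlimb and lung factor, 46.8% and 56.8%. Tbx18, which acts in epicardium and ureter, was 47.5% covered in water and 63.2% after crotonate, and Tbx21 21.7% and 41.8%. The longest Tbx18 peak was 17.4 kb long with 515 fragments at its summit (471 to 561) and a fold enrichment of 86.4 in water, and 25.8 kb with 250 (220 to 283) and 68.6 after crotonate.

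Tbx5, the factor of heart and forelimb, had 4 H3K27me3 peaks in water, all inside the gene, the longest of 6.71 kb. After crotonate it had 6, the longest of 11.1 kb, and a new peak of 3392 bp reached the lower end with 24 fragments at its summit (15.4 to 35.7) and a fold enrichment of 8.13. The longest Tbx5 peak had 97 fragments (78.7 to 118) and a fold enrichment of 19.1 in water, and 83 (66.1 to 103) and 26.9 after crotonate. The covered share of Tbx5 was 14.6% in water and 22.6% after crotonate. Tbx22, a palate factor, had 3 peaks of 376 to 1179 bp inside the gene in water and 1 of 5038 bp after crotonate that spanned all 3. Tbx6, a factor of paraxial mesoderm, had H3K4me3 and no H3K27me3 in either treatment. Its peak of 1043 bp in water lay 257 bp outside the gene, next to an end of Ypel3, with 51 fragments (38.0 to 67.1) and a fold enrichment of 7.58. After crotonate it was 1415 bp long with 65 fragments (50.2 to 82.8) and a fold enrichment of 5.43, and a peak of 359 bp with 23 fragments was called 464 bp inside Tbx6. Tbx10 had an H3K4me3 peak of 1596 bp in water, with 252 fragments at the summit (222 to 285) and a fold enrichment of 29.0, over an end of the neighbouring gene Nudt8 and 7231 bp from the Tbx10 start. At the Tbx10 start itself H3K27me3 appeared after crotonate as a peak of 696 bp with 17 fragments (9.90 to 27.2) and a fold enrichment of 3.23. The H3K4me3 calls at Tbx6 and Tbx10 therefore cannot be told apart from marks of the neighbouring genes.

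The heart and mesoderm factors included the genes that were covered whole. Hand1 and Hand2, which build the heart ventricles, Nkx2-5, the homeodomain factor of heart progenitors, Tcf21 of epicardium and kidney, and Twist1 were 100% covered in both lists, as were Gata2, Cdx2 and Pdx1, which makes 8 of 41 in each treatment. The peak over Hand2, itself a gene of 3.54 kb, was 50.6 kb long in water, and with crotonate 52.4 kb, the longest at any member in both. The peak over Tcf21 measured 44.1 kb and 44.6 kb, that over Nkx2-5 30.3 kb and 30.5 kb, that over Twist1 29.5 kb and 37.7 kb, and that over Hand1 19.8 kb and 22.5 kb. Mesp1, the factor of the earliest heart progenitors, lay under a peak, 4.49 kb long in water and 6.88 kb with crotonate, that spanned the whole gene of 1.35 kb. Of the somite factors, Meox1 had no peak in water and an H3K27me3 peak of 3632 bp at its upper end after crotonate, with 20 fragments at the summit (12.2 to 30.9) and a fold enrichment of 6.54. Meox2 had 2 H3K27me3 peaks in water, of 2697 and 1039 bp, at its lower end, and 5.81% of its long locus was covered after crotonate.

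Of the 4 skeletal muscle factors, 1 had a mark. Myod1, which starts the muscle programme, had an H3K27me3 peak 3.95 kb long in water and 6.97 kb long with crotonate. Myf5 and Myf6, which lie beside each other on chromosome 10, and Myog had no peak of either mark in any of the 4 lists, as was found for Gata1 and for Hnf4a, the liver and gut factor. These 5 were all of the members without any peak after crotonate (12.2%), against 33.3% of all genes. In water there were 7 of them (17.1% against 37.3%), with Meox1 and Spi1.

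Of the gut and pancreas factors, Cdx2 of the intestine and Pdx1 of the pancreas lay whole under peaks of 27.1 kb and 20.2 kb in water and of 31.6 kb and 23.5 kb after crotonate. Cdx1, also an intestinal factor, had 31.8% of its locus covered in water and 54.7% after crotonate, a difference of 4894 bp. At Cdx4, which patterns the posterior embryo, 6 short peaks of 875 to 2384 bp were called in water and 5 of 1227 to 1857 bp after crotonate. The 6 water peaks had fold enrichments of 3.76 to 4.84, where the list median was 5.23. The 5 after crotonate had 3.90 to 13.3, the highest over the start, where the list median was 4.95. The covered share of the Cdx4 locus was 60.8% in water and 52.1% after crotonate. Along with Tcf15 it was 1 of 2 members with less covered length after crotonate.

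Over the members with H3K27me3, the domains were long, and most were slightly longer after crotonate. The longest peak of each of 32 members in water had a median length of 17.2 kb (1.18 to 50.6 kb), against 3.24 kb for the longest peak of each of the 2411 protein-coding genes with the mark. Of these members 22 had a peak of at least 10 kb (68.8%), against 17.2% of those genes. After crotonate the median over 35 members was 19.0 kb (0.562 to 52.4 kb), against 2.83 kb over 3254 genes, and 25 of them had a peak of at least 10 kb (71.4%), against 16.6%. Over all 70 member peaks in water the median was 3134 bp, against 1087 bp for the list, and over all 87 after crotonate 2353 bp, against 828 bp. The longest peak was longer after crotonate at 29 of the 32 members with one in both (90.6%, 75.0 to 98.0%), against 82.4% of all 2325 such genes. The median ratio was 1.16 at the members and 1.25 over those genes, so longer peaks were general and not a property of the members. At Cdx4, Meox2 and Tcf15 the longest peak was shorter. No peak was shared by 2 members. Of the 5 members with the longest peaks in water, Hand2 had 453 fragments at the summit in water and 254 after crotonate, with fold enrichments of 55.2 and 40.6. Gata4 had 713 and 336 fragments and fold enrichments of 122 and 114. Tcf21 had 413 and 222 fragments with 29.2 and 75.3, Tbx15 455 and 211 with 43.0 and 67.6, and Gata3 484 and 238 with 58.9 and 30.5. All 5 summits held fewer fragments after crotonate, where the H3K27me3 library depth was 0.811 times that of water. The counts were lower by more than that ratio, and the cause was not tested. The fold enrichments of the 2 libraries are on unlike scales.

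Covered length was larger after crotonate at 22 of those 32 members (68.8%), against 79.7% of all genes with the mark in both lists, and smaller at 2 (6.25%) against 12.9%. The remaining 8 were covered whole in both lists and had no room to differ. The 5 members with the largest difference were Runx3, Tbx5, Gata4, Tbx20 and Tbx18, at 5085 to 14734 bp. Summed over all 41 loci, the water H3K27me3 list covered 409 kb (25.3%) and the crotonate list 490 kb (30.3%). The median share over the 32 members with the mark in water was 60.3% in water and 72.3% after crotonate, against 9.00% and 14.0% over all 2411 genes with it in water. Where 1 water peak overlapped exactly 1 crotonate peak, 24 of 28 such pairs at members were wider after crotonate, by a median ratio of 1.17, against 78.6% of 3987 pairs and a ratio of 1.30 in the whole lists.

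**Figure D2:**
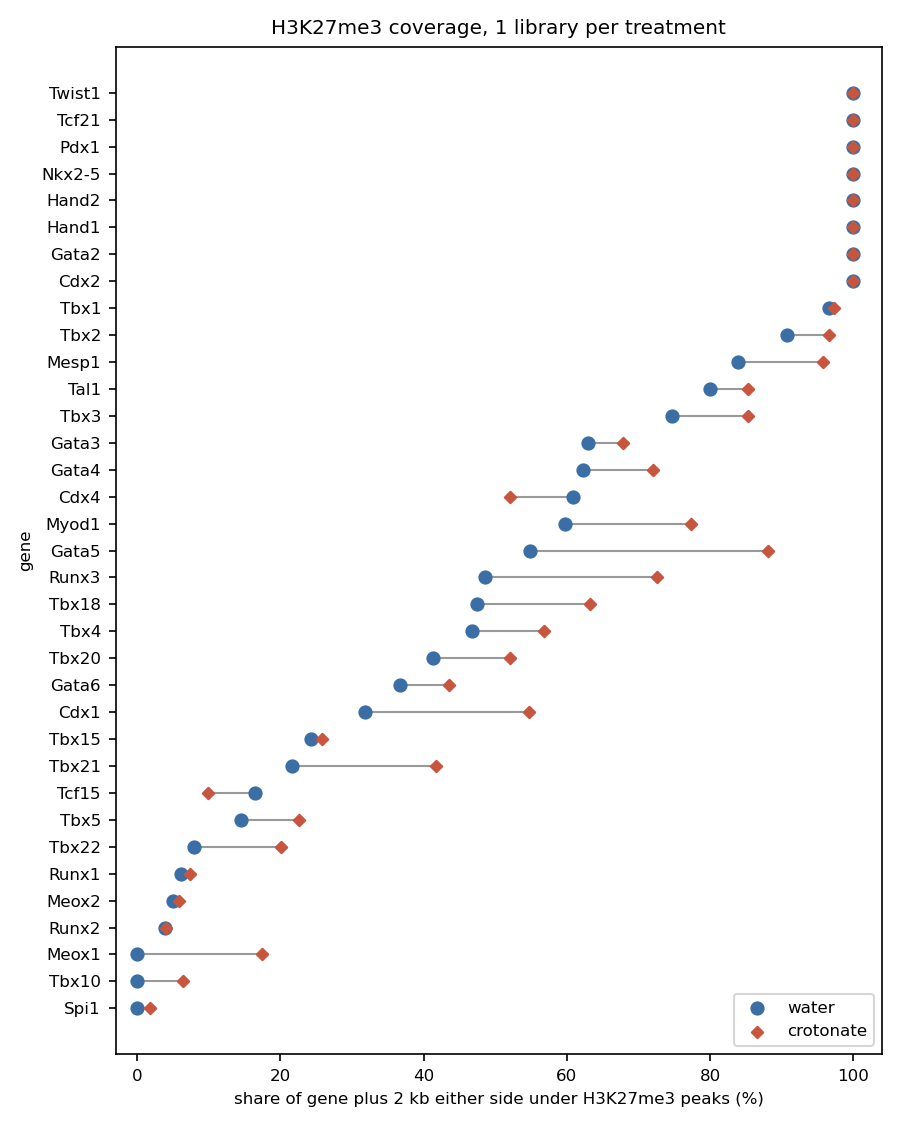
Share of each member's locus, the gene with 2 kb either side, covered by H3K27me3 peaks in water and after crotonate, in percent. The 8 fully covered genes sit at 100% in both, Runx3 lies at 48.6% and 72.6%, and Cdx4 and Tcf15 are the members with a lower share after crotonate.

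H3K4me3 at the members was called in short, weak peaks that mostly lay on H3K27me3. In water 10 peaks at 9 members had a median length of 822 bp and a median fold enrichment of 6.37, while the whole list had medians of 1508 bp and 14.3. Of these 10, 7 lay on H3K27me3, 6 of them wholly, against 6.88% of the whole list. After crotonate 22 peaks at 16 members had a median length of 950 bp and a fold enrichment of 10.1, against 1707 bp and 18.2, and 16 of the 22 lay on H3K27me3, against 10.7% of the list. All 10 water peaks were called again after crotonate, and 11 of the 22 crotonate peaks overlapped no water peak. Each of the 10 was wider after crotonate, by a median ratio of 1.80, while 94.5% of the 12093 pairs in the whole lists were wider, by a median ratio of 1.24.

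The 4 members with both marks at an end in water were Tbx2, Tcf15, Meox2 and Mesp1. At Tbx2 (chromosome 11, 85832615 to 85841948) the H3K4me3 peak at the lower end measured 540 bp, with 37 fragments at the summit (26.1 to 51.0) and a fold enrichment of 5.31, in water. After crotonate it measured 2000 bp, with 62 fragments (47.5 to 79.5) and a fold enrichment of 14.6, wholly on H3K27me3 as before. Peaks of 568 and 1520 bp were then called at the upper end of Tbx2, the longer of them over a water peak that lay beyond the 2 kb window. At its lower end Tbx2 lies next to the long noncoding RNA 2610027K06Rik, and peaks there cannot be told apart between the genes.

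Tcf15, the paraxis factor of somites, was the member where H3K27me3 covered less and H3K4me3 more after crotonate. Its H3K4me3 peak (chromosome 2, 152143271 to 152144252 in water) measured 982 bp in water with 47 fragments (34.5 to 62.5) and a fold enrichment of 8.71, and 1756 bp after crotonate with 66 (51.0 to 84.0) and 15.5. Its H3K27me3 peak of 1652 bp in water was replaced by peaks of 438 and 562 bp, with 35 fragments at the summit before and 15 and 16 after. The covered share of the Tcf15 locus was 16.5% in water and 9.96% after crotonate. The intervals of the H3K4me3 fragment counts at Tcf15 overlapped, and the H3K27me3 library was the shallower one after crotonate. At Meox2 the H3K4me3 peak measured 504 bp in water and 960 bp after crotonate, with 31 (21.1 to 44.0) and 48 (35.4 to 63.6) fragments and fold enrichments of 5.97 and 7.92. At Mesp1 it measured 510 and 926 bp, with 56 (42.3 to 72.7) and 58 (44.0 to 75.0) fragments and fold enrichments of 6.78 and 11.9. At Gata3 a peak of 292 bp inside the gene, 657 bp from the start, measured 872 bp after crotonate, with 30 (20.2 to 42.8) and 60 (45.8 to 77.2) fragments and fold enrichments of 4.40 and 12.3.

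New H3K4me3 peaks after crotonate at genes with H3K27me3 were called at an end of Tbx21, Gata6, Tbx18 and Tbx1. The Tbx21 peak (chromosome 11, 97114402 to 97115387) measured 986 bp, covered the printed start, and had 48 fragments at its summit (35.4 to 63.6) and a fold enrichment of 12.0. H3K27me3 was called over the same Tbx21 start in both treatments, at 4618 bp in water and 5489 bp after crotonate, with a further peak of 2802 bp at the other end after crotonate. The Gata6 peak measured 1413 bp, with 34 fragments (23.5 to 47.5) and a fold enrichment of 8.36, and lay beside the long noncoding RNA Gata6os, from which it cannot be told apart. The Tbx18 peak of 760 bp covered the annotated start, with 25 fragments (16.2 to 36.9) and a fold enrichment of 6.52. The Tbx1 peak was the weakest, 380 bp with 15 fragments (8.40 to 24.7) and a fold enrichment of 4.07, and it lay at the end opposite the starts, 6710 bp from the nearest of them.

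Gata2 and Tal1 gained H3K4me3 inside the gene, on H3K27me3. The Gata2 peak of 940 bp (chromosome 6, 88198663 to 88199602) began at the internal start printed above, near the long noncoding RNA Gm38708, with 30 fragments (20.2 to 42.8) and a fold enrichment of 4.36. The Tal1 peak of 829 bp had 52 fragments (38.8 to 68.2) and a fold enrichment of 12.9, and lay 5088 bp from the nearest start in the promoter table. With peaks inside the gene counted, H3K4me3 was new at 7 of 32 members (21.9%, 9.28 to 40.0%), against 9.64% of all such genes. The other 20 members with H3K27me3 only in water had H3K27me3 only, at their ends, after crotonate.

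**Figure D3:**
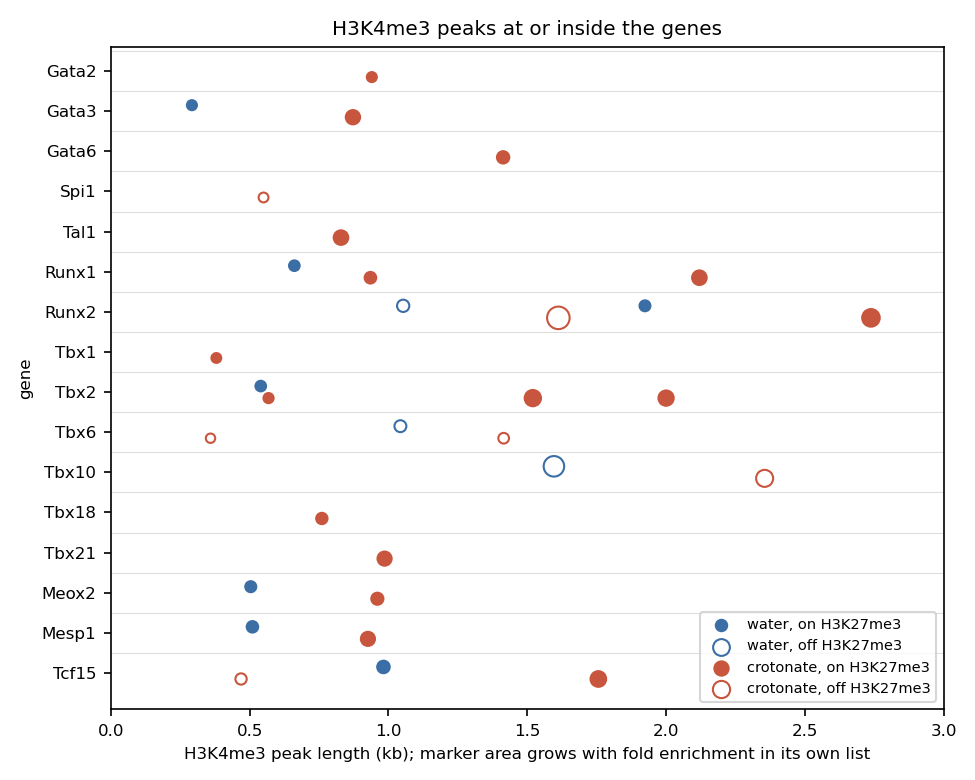
Length of every H3K4me3 peak at the members in water and after crotonate, in kb, with colour by treatment, filled markers for peaks on H3K27me3 and open ones for peaks off it, and marker area by the authors' fold enrichment. All 10 water peaks are longer after crotonate, and 11 of the 22 crotonate peaks have no water partner.

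**Figure D4:**
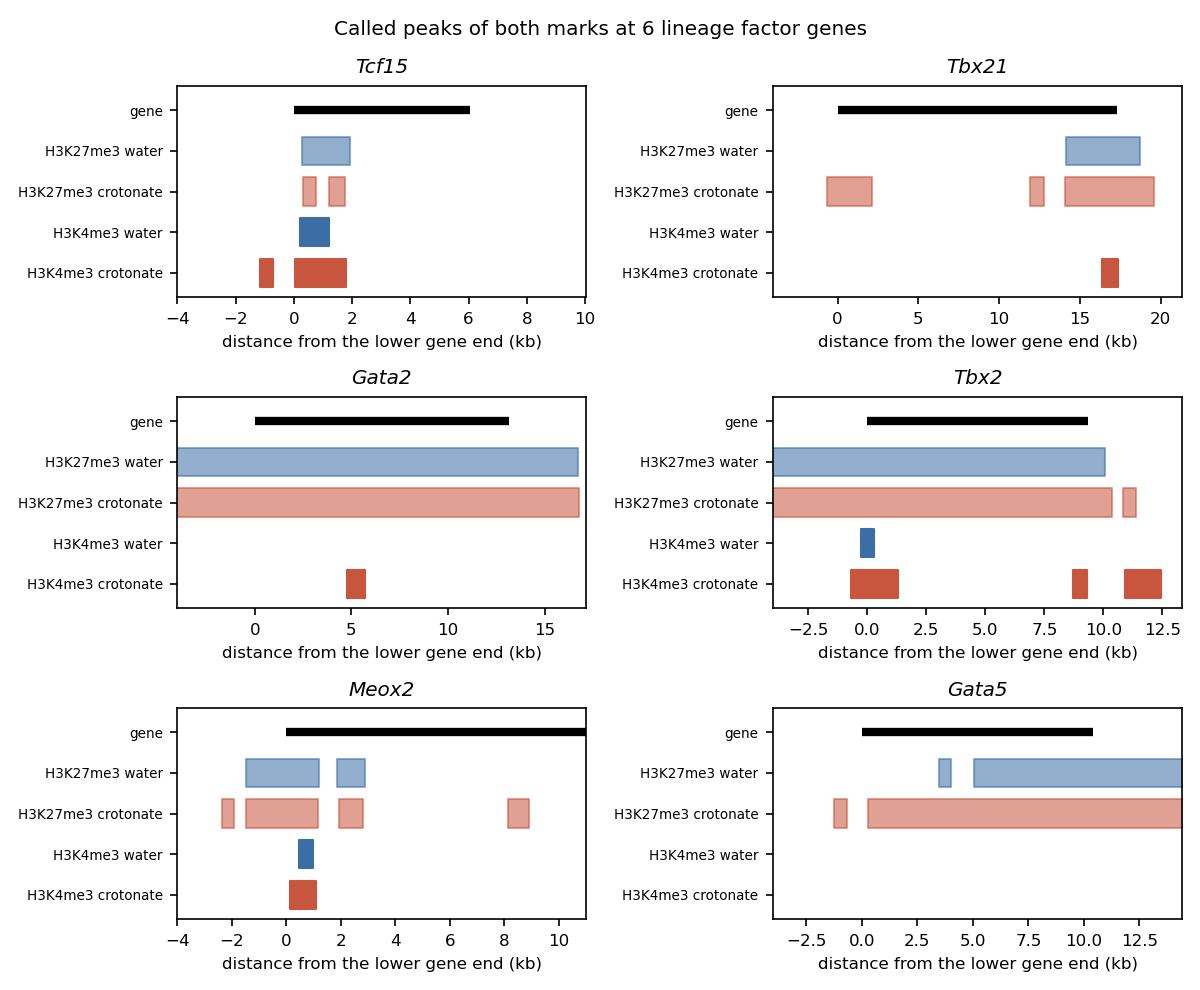
Peaks of both marks and both treatments that reach the gene or 2 kb either side of it at Tcf15, Tbx21, Gata2, Tbx2, Meox2 and Gata5, drawn by distance from the lower end of each gene in kb, with features cut at the panel edges. The Tbx21 and Gata2 H3K4me3 bars appear only after crotonate and lie on H3K27me3, and the Gata5 H3K27me3 bar is longer after crotonate.

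CG content was higher at the member starts on H3K27me3 than at the others, with overlap at low values. The promoter table held 28 of the 41 members, with 36 starts, and the rest were not analysed here for sequence. All 18 member starts with at least 10 CG in the 300 bases lay on H3K27me3 in water, and 1 of them, the internal start of Runx1, lay on H3K4me3. Over all 12066 protein-coding starts with at least 10 CG, 7.97% lay on H3K27me3 and 83.6% on H3K4me3. After crotonate 4 of the 18 member starts lay on H3K4me3, at Runx1, Gata2, Tbx18 and Tbx21, against 88.5% of all. Of the 18 member starts under 10 CG, 6 lay on H3K27me3 in water, against 3.00% of all such starts.

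The median was 17.5 CG over the 24 member starts on H3K27me3 in water and 4 over the 12 starts off it, of which the richest had 9. The richest start of all, an internal start of Runx3 with 45 CG, lay on H3K27me3 in both treatments, while the start of Runx3 at the gene's end, with 8 CG, lay off it in both. The 5 starts of the members without any peak that the table held, at Gata1, Hnf4a, Myf5 and Myog, had 3 to 9 CG. Starts of members with H3K4me3 within 2 kb after crotonate had a median of 18 CG (8 starts), and starts on H3K27me3 without it a median of 16 (19 starts), so the groups overlapped widely. The sequence searched was CG, which reads the same on both strands, and 95.4% of all protein-coding windows hold at least 1.

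**Figure D5:**
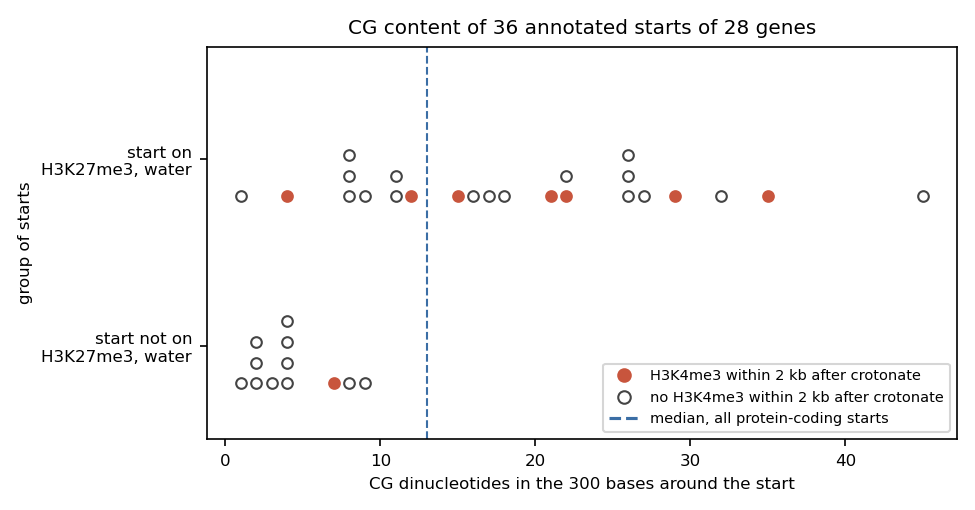
Number of CG dinucleotides in the 300 bases around each member start, for starts on and off H3K27me3 in water, with filled markers for H3K4me3 within 2 kb after crotonate and a dashed line at 13, the median of all protein-coding starts. Every start with at least 10 CG is on H3K27me3, and starts with and without H3K4me3 overlap.

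Genes that work with these factors mostly had another chromatin state. Of 20 partners and cofactors, 17 had H3K4me3 at an end in both treatments, against 54.1% of all genes in water and 58.2% after crotonate. Among them were Ldb1 and Cbfb, which bind GATA-Tal1 complexes and Runx factors respectively. Id4 and Zfpm1, 2 of the 20, had H3K27me3 at the same end in water, against 3.85% of all genes. In both treatments Mef2a and Mef2c had H3K4me3 inside the gene only, and Lmo2 had both marks there. Tle1, a corepressor that Runx factors recruit, also had H3K27me3 at an end after crotonate. It was 1 of 18 partners without the mark at an end in water, against 3.52% of all such genes with a gain. The Tle1 peak was 0.344 kb long with a fold enrichment of 3.25, where the list median was 4.95. Of 5 T-box genes outside the list, Eomes and T had both marks, Tbr1, a factor of cortical neurons, H3K27me3 only, Mga H3K4me3 only and Tbx19 neither, in both treatments.

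Other factors of the same lineages were closer to the members. Of 39, such as Foxa2, Pax7 and Cebpa, 29 had H3K27me3 at an end in water and 31 after crotonate. H3K4me3 was at an end of 10 and 14, and both were at 1 end of 8 and 11. Over all genes the shares were 9.45% and 12.3% for H3K27me3, 54.1% and 58.2% for H3K4me3, and 3.85% and 6.81% for both. New H3K4me3 was called at 4 of the 29 without it in water, against 9.09% of all such genes. These were Ikzf1, a lymphoid factor, Snai2, a factor of neural crest, Sox18, an endothelial factor, and Sp7, a bone factor. Their peaks had fold enrichments of 3.42 to 6.79, where the list median was 18.2. Snai1, a factor of epithelial-mesenchymal transition, was among those with new H3K27me3. Of 26 products of the differentiated tissues, such as Alb, Myh6 and Des, 20 had neither mark at an end in water and 15 after crotonate. Of all genes, 40.9% and 37.0% had neither. New H3K4me3 was called at 5 of the 23 without it in water, Apoa1, Col1a1, Col2a1, Acta1 and Sp7, against 9.09% of all such genes. The fold enrichments were 3.42 to 4.48, where the list median was 18.2. New H3K27me3 was called at 3 of 22, Ckm, Hba-a1 and Ins2, against 3.52%. Its fold enrichments were 3.68 to 5.66, where the list median was 4.95. Sp7 is in both lists, so its 1 peak is counted in each. Col1a1 is also 1 of the 5 mesenchymal markers named above and the only one of them with a new peak. Whether other cell types in the culture add to the members' new peaks was not tested.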

How the data were processed

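Peak lists of H3K4me3 and H3K27me3 in water and crotonate NSPCs were used, 1 library each, with both treatments grouped by their labels. The submitters' processing notes name the build GRCm38 and the tools MACS2 2.2.7.1, Picard 2.22.0, Bowtie2 2.4.1 and SAMtools 1.10. The authors deposited, per the file headers, each peak's position and length, its summit pileup (a signal), its fold enrichment over local background (a ratio) and −log10 of p and q. The sources used here do not give the caller's options or say whether IgG served as its control.

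Summit pileups lay within 0.006 pileup units of whole multiples of 1 step per library (100%). That number of steps was read as fragments. The step was chosen by this same rule on the lower pileups, so for them the 100% is no independent check. Fragments may not be independent molecules, so Poisson and Clopper-Pearson intervals cover counting error only. A peak counted when it overlapped a window of 2 kb either side of a gene end, or the gene, by at least 1 bp, and a locus was the gene with 2 kb either side. A new mark was called after crotonate and not in water. Peaks were paired where each overlapped only the other. Background depth was read from the lowest background per bp in each list, with fold enrichment taken as pileup over background with 1 added to both, which the headers do not state. Gene ends came from the RefSeq table for GRCm38.p6, and promoters matched 28 of 41 members by symbol. Python 3.11.15, numpy 2.4.6, pandas 2.3.3, scipy 1.17.1 and matplotlib 3.10.9 were used. The code for calls at gene ends was run on simulated short peaks near ends of separated genes, scored by the same overlap rule. That run did not check peaks inside genes, long domains, both marks at 1 end or covered length. With 1 library per group no test was made, and shares are set beside those of all protein-coding genes. The members, the other gene lists and the thresholds were chosen with earlier results of these data known. All 41 members are accounted for. Peaks are described for members that gained a mark, had both marks at an end or had H3K4me3 in water, for the 5 longest H3K27me3 peaks and for the largest differences in covered length, and members without a peak are named. Genes of other lists are named where a mark was gained or lost, up to 3 per mark in order of −log10 q, and further ones after their values were seen. The name of 1 such gene with new H3K27me3 is not reported here.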

Additional observations from a re-analysis of the deposited data

How the results depend on the processing

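Of 78 counts of members computed under other settings, 11 differed from the reported count by more than 1.5 times. Of 12 covered shares, 10 lay outside the exact interval over base pairs (25.3 to 25.4% in water, 30.2 to 30.4% after crotonate), which treats base pairs as independent and is therefore narrow, and no share shifted by more than 1.37 percentage points. No paired analysis was possible because there was 1 library per mark and treatment. With only those peaks kept whose −log10 q reached the water list's median, 1 member had H3K4me3 in water and 1 after crotonate, 0 and 0 had both marks, and 0 gained H3K4me3. New H3K4me3 numbered 3 with lists of equal length and 3 with a fold enrichment of at least 5 (Gata6, Tbx18 and Tbx21 in both). Over gene starts alone, for 28 members, it numbered 3 (Gata2, Tbx18 and Tbx21) and new H3K27me3 1 (Tbx10). Gata6, Spi1, Meox1 and Tbx5 have no start in the promoter table and could not be called there. Both marks in water again stood at 4 members, but these were Gata3, Meox2, Mesp1 and Runx1. Tbx2 and Tcf15 have no start in that table either. With the summit required in the window, new H3K27me3 numbered 6 and lost H3K27me3 2 (Gata2 and Gata4). New H3K27me3 numbered 3 at a fold of at least 5 and 3 at the median q, in both with Cdx4 in place of Tbx10. The covered share in water was 24.1% at a fold of at least 5, 24.2% at the median q, 24.4% with 1 kb and 26.7% with 5 kb windows. After crotonate it was 29.3% with lists of equal length, 29.0% at a fold of at least 5, 29.0% at the median q, 29.3% with 1 kb, 31.6% with 5 kb and 29.7% at matched background depth. The last setting, chosen after seeing the data, left 4 new H3K4me3 (without Tbx1) and 2 new H3K27me3 (without Tbx10). Stricter thresholds keep fewer peaks by construction, members without a listed start drop out, and for the other differences the cause was not tested. Weak peaks were called against backgrounds of unequal depth, so a mark absent from a list was not detectable at that depth and is not shown to be missing.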
